A study of Canis lupus familiaris with 17 samples.

Results

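Untreated soft tissue sarcomas of the dog were compared by type, perivascular wall tumour against peripheral nerve sheath tumour. They were chosen by the sarcoma type given in the labels: 7 of the 17 samples of the series were untreated, of which 4 were perivascular wall tumours (A, C, D and E) and 3 were peripheral nerve sheath tumours (B, F and G). All 7 were archived soft tissue sarcomas of pet dogs, fixed in formalin and embedded in paraffin, and had received no cytokine. RNA was counted on the nCounter Canine IO panel, on which colour-barcoded probes are hybridized to RNA and counted without amplification. The labels do not tie the untreated tumours to named or numbered dogs, so the p-values measure the spread between these samples, which may in part be technical. Breed, age and sex of the dogs were not analysed here. Tumours from treated dogs, used below for a side-by-side reading only, had been injected with the cytokines interleukin-2 and interleukin-12, each made to bind collagen. Those taken on day 8 after 1 dose were 1 perivascular wall tumour (A) and 2 nerve sheath tumours (B and C). The treated nerve sheath tumours of all cohorts numbered 7. They were these 2, another 2 taken on day 2 after 1 dose, and 3 taken after 2 doses.

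Both types belong to the spindle cell sarcomas of the dog and can look alike under the microscope. Perivascular wall tumours are taken to arise from the contractile cells around small vessels, that is pericytes, myopericytes and smooth muscle cells, which carry PDGFRB, MCAM and actin-associated proteins. Nerve sheath tumours are taken to arise from Schwann cells, perineurial cells or fibroblasts of the nerve sheath. Schwann cells carry S100B, SOX10, NCAM1 and GFAP, and perineurial cells carry claudin-1.

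Depth was alike in both types. Endogenous totals were 1332647 to 1509461 counts in perivascular wall tumours and 1200521 to 1422654 in nerve sheath tumours. The geometric mean of the 20 housekeeping probes, to which every sample was scaled, was 489 to 686 counts in perivascular wall tumours and 534 to 635 in nerve sheath tumours. Probes above background, meaning more than 2 SD over the average of that tumour's negative controls, numbered 620 to 670 of 780 in perivascular wall tumours and 609 to 674 in nerve sheath tumours. Values below are normalized counts, in which each tumour's raw counts are multiplied so that its housekeeping level matches the average of the 7. Background thresholds were 17.9 to 28.4 raw counts, so values of that size lie near background.

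No gene separated the types after correction for multiple testing. Of 676 tested probes, edgeR's quasi-likelihood test called 0 (0%) at an adjusted p under 0.05, and the smallest adjusted p was 0.998. At an unadjusted p under 0.05 there were 27 probes (3.99%), of which 8 (1.18%) were higher and 19 (2.81%) lower in perivascular wall tumours. The median difference of all probes was -0.10 log2 with housekeeping scaling, 0.01 with TMM and 0.04 with median-of-ratios scaling, and both of these also called 0. DESeq2 called 4 probes on the same counts, among them KIT, lower, and KRT7 and IL3RA, higher in perivascular wall tumours. edgeR and both limma fits called none of the 4. DESeq2 gave neither a p nor an adjusted p for 17 probes, among them S100A9, S100A12, MMP9 and IL12RB2, which are described below. The median standard error was 0.48 log2 and the median half-width of the unadjusted 95% interval was 1.11 log2. A typical probe could thus differ by about that much without reaching an unadjusted p under 0.05. Larger differences did not pass after adjustment either, such as -3.20 log2 for KIT in edgeR. All 4 perivascular wall tumours lay above all 3 nerve sheath tumours for 9 probes (1.33%) and below them for 19 (2.81%), 28 (4.14%) in all. An exact permutation test of 1 value in 4 against 3 tumours cannot go below p = 0.0571.

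**Figure D1:**
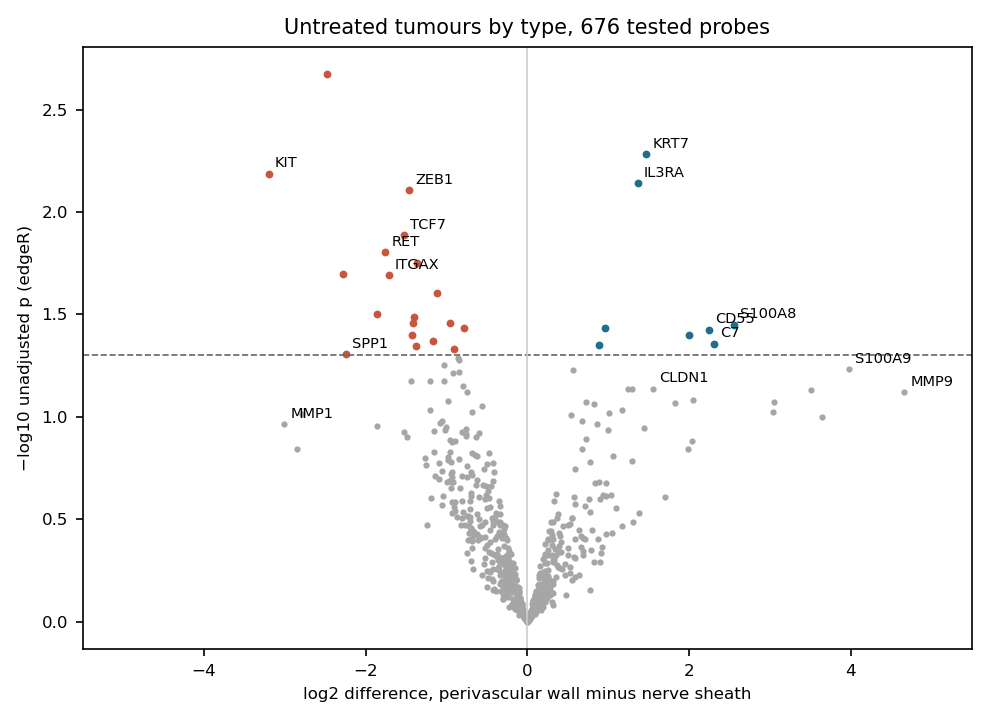
Log2 difference between untreated perivascular wall and nerve sheath tumours (x axis) against −log10 of the unadjusted edgeR p (y axis), 1 point per tested probe. Blue and red points are the 8 higher and 19 lower probes with an unadjusted p under 0.05 (dashed line), and none of the 676 probes passed after adjustment.

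Pairs of the same type and pairs of different type covered much the same range of likeness over the panel. Across the 676 probes, Pearson's r of log2 counts was 0.873 to 0.93 for the 6 pairs of perivascular wall tumours and 0.862 to 0.944 for the 3 pairs of nerve sheath tumours. For the 12 pairs of different type it was 0.855 to 0.937. Genes are not independent replicates, so these values only describe the libraries. Tumour pairs crossed the labels. The closest pair was nerve sheath tumours F and G (0.944), and the next was perivascular wall tumour A with nerve sheath tumour G (0.937). Nerve sheath tumour B stood nearer to perivascular wall tumour E (0.93) than to the nerve sheath tumours F (0.884) and G (0.862).

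Few lineage markers are on the panel, and those measured did not set the labelled types apart. Of the pericyte and smooth muscle list 3 probes were present and tested, and 0 passed in either direction. PDGFRB, the growth factor receptor of pericytes, had 2492, 10701, 2424 and 5875 normalized counts in perivascular wall tumours A, C, D and E, against 3875, 2238 and 3740 in nerve sheath tumours B, F and G. The ranges overlapped, with tumours C and E highest and A and D within the nerve sheath range (difference 0.71 log2, 95% interval -0.68 to 2.10, adjusted p = 0.998 in edgeR). MCAM, an adhesion molecule of mural and endothelial cells, averaged 464 ± 92.6 (SD, n = 4) in perivascular wall tumours and 427 ± 81.6 (n = 3) in nerve sheath tumours, with an interval of -0.61 to 0.85 log2. VIM, the intermediate filament vimentin of mesenchymal cells, was the third probe and reached 174201 to 432710 counts in perivascular wall tumours and 178018 to 308849 in nerve sheath tumours. The list median of 0.40 log2 was the difference of VIM itself, between MCAM at 0.12 and PDGFRB at 0.71 log2. The median of all tested probes was -0.10 log2.

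Of 7 Schwann cell and neural probes 6 were tested, and again 0 passed. S100B, the calcium-binding protein for which nerve sheath tumours are stained, had 15.5, 62.7, 232 and 58.0 normalized counts in perivascular wall tumours A, C, D and E, against 106, 172 and 17.7 in nerve sheath tumours B, F and G. The highest value was thus in a perivascular wall tumour and the nerve sheath tumour G was at background (difference -0.10 log2, interval -2.40 to 2.20). SOX10, the transcription factor that defines the Schwann lineage, was near background in all 7 tumours, at 17.9 to 31.5 in perivascular wall tumours and 20.5 to 35.4 in nerve sheath tumours. It passed the background threshold in 3 of 4 perivascular wall tumours and in 1 of 3 nerve sheath tumours. GFAP, a glial filament, averaged 45.7 ± 14.6 in perivascular wall tumours and 45.9 ± 9.16 in nerve sheath tumours. None of these 3 probes was highest in all nerve sheath tumours.

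The other tested neural probes had a higher mean in perivascular wall tumours, and none passed. NCAM1, a neural adhesion molecule, had 828, 183, 647 and 510 normalized counts in perivascular wall tumours, against 151, 307 and 357 in nerve sheath tumours (difference 1.00 log2, interval -0.31 to 2.30). Tumour C alone of the perivascular wall tumours lay within the nerve sheath range. TUBB3, a neuronal tubulin, averaged 4652 ± 2571 in perivascular wall tumours and 3089 ± 874 in nerve sheath tumours. ERBB3, the neuregulin receptor of Schwann cells, was at 49.9 to 281 in perivascular wall tumours and 36.3 to 160 in nerve sheath tumours. The median of the 6 tested probes was 0.29 log2.

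CLDN1, the tight junction protein claudin-1 that marks perineurial cells as well as epithelia, was the only perineurial probe tested, since MUC1 was above background in 0 of 7 tumours. It had 7169, 3821, 6349 and 20144 normalized counts in perivascular wall tumours A, C, D and E, against 1969, 1516 and 6119 in nerve sheath tumours B, F and G. Tumour E was highest, tumour G lay inside the perivascular wall range, and the difference of 1.55 log2 (interval -0.18 to 3.28) did not pass. Without tumour E it was 0.85 log2 and without tumour G 2.43 log2. KIT, the only probe from the melanocytic and neural crest list, is described with the genes of smallest p below.

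**Figure D2:**
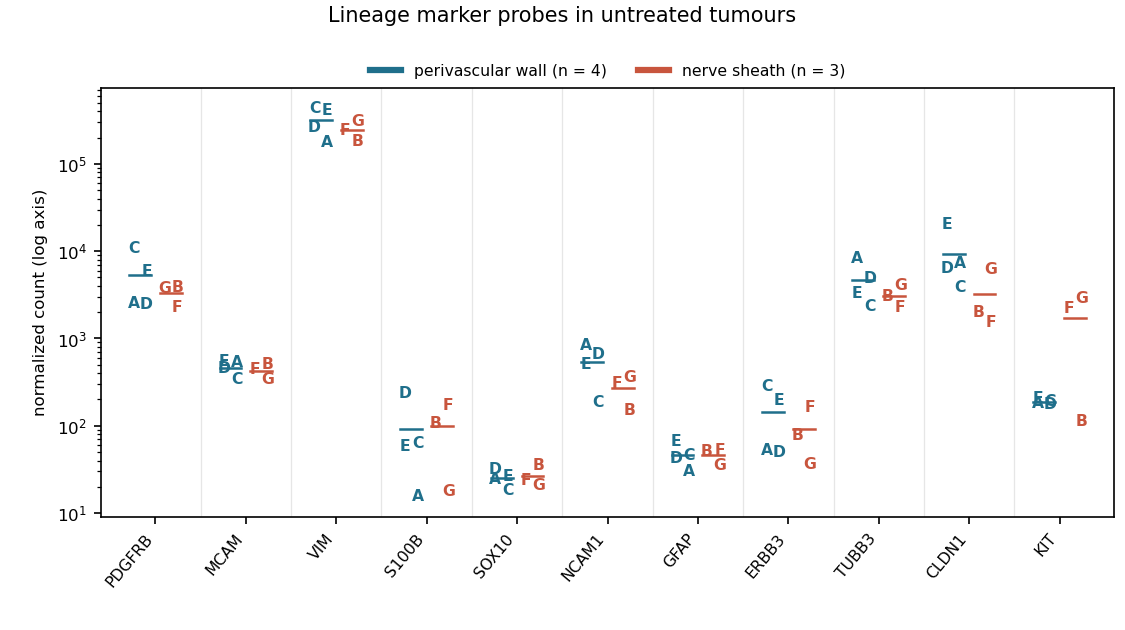
Normalized counts (log axis) of the 11 tested lineage marker probes, with 1 letter per untreated tumour, perivascular wall in blue and nerve sheath in red, and a bar at each group's mean. The types overlap for all 11 probes, and for KIT nerve sheath tumours F and G stand at 2202 and 2866 above the other 5.

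The 12 probes with the smallest p and a higher mean in perivascular wall tumours were taken among those averaging 50 normalized counts or more in that type. None passed (adjusted p = 0.998 for each in edgeR), and 7 of them had an unadjusted p under 0.05. KRT7, a keratin of simple epithelia, came first, with 12121, 7270, 5844 and 10795 normalized counts in perivascular wall tumours A, C, D and E, against 2555, 3810 and 3409 in nerve sheath tumours B, F and G. The types did not overlap, the difference was 1.47 log2 (SE 0.38, interval 0.58 to 2.35), and it stayed between 1.29 and 1.63 log2 when each tumour was left out in turn. Keratins of skin followed another order. KRT14, a keratin of basal epidermis, was highest in perivascular wall tumours C (5103) and D (2606) and nerve sheath tumour F (3618), and at 14.5 counts in perivascular wall tumour E, where KRT7 was at 10795.

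Stromal, clotting and complement genes were also among these 12. CXCL12, the chemokine of stromal cells, had 26575, 11710, 14775 and 17196 normalized counts in perivascular wall tumours, against 8371, 10398 and 9683 in nerve sheath tumours, with no overlap (difference 0.89 log2, SE 0.37). F13A1, a subunit of clotting factor XIII found in tissue macrophages, had 696, 636, 1034 and 877 in perivascular wall tumours, against 635, 319 and 299 in nerve sheath tumours. Here perivascular wall tumour C and nerve sheath tumour B were almost level. CD55, which protects cells from complement, had 353, 3654, 8666 and 3792 in perivascular wall tumours, against 931, 940 and 730 in nerve sheath tumours. Perivascular wall tumour A was the lowest of all 7 for CD55, and the difference was 2.25 log2. It was 2.63 log2 without tumour A (unadjusted p = 0.000964, adjusted p = 0.651 in edgeR) and 1.58 log2 without tumour D, the highest (unadjusted p = 0.0896, adjusted p = 0.815).

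For C7 and IL1RL1 the types did not overlap, and 1 tumour set the size of the difference. C7, a component of the membrane attack complex, had 450, 533, 589 and 3653 normalized counts in perivascular wall tumours A, C, D and E, against 90.7, 270 and 430 in nerve sheath tumours B, F and G. Its difference of 2.31 log2 was 0.99 log2 without tumour E. IL1RL1, the receptor of IL-33, had 81.8, 67.2, 338 and 50.7 in perivascular wall tumours, against 35.4, 47.2 and 17.7 in nerve sheath tumours, and its 2.01 log2 was 1.00 log2 without tumour D.

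The calcium-binding proteins of neutrophils followed tumour D. S100A8 had 293, 759, 4891 and 655 normalized counts in perivascular wall tumours A, C, D and E, against 357, 187 and 297 in nerve sheath tumours. S100A9 had 19.8, 45.7, 1870 and 59.2 in perivascular wall tumours, against 57.5, 23.6 and 13.9 in nerve sheath tumours. S100A12 had 39.6, 55.6, 2648 and 88.2 in perivascular wall tumours, against 107, 47.2 and 31.6 in nerve sheath tumours. All 3 were highest in tumour D. The differences of 2.56 (S100A8), 3.97 (S100A9) and 3.51 log2 (S100A12) were 1.02, 0.39 and -0.023 log2 without it. MMP9, a gelatinase, had 11340 counts in perivascular wall tumour A and 21.5 to 180 in the other perivascular wall tumours, against 22.3 to 220 in nerve sheath tumours. Its 4.66 log2 was -0.099 log2 without tumour A. CCL21, a chemokine of lymphatic vessels, was at 94.7 to 304 in perivascular wall tumours and 33.2 to 122 in nerve sheath tumours, with 1.30 log2 (interval -0.15 to 2.75). IL3RA, the IL-3 receptor chain called by DESeq2, was named here after its values were seen. It was at 25 to 53.9 in perivascular wall tumours and 9.95 to 17.2 in nerve sheath tumours, where it was above background in 0 of 3. IL3RA thus met the background filter through the perivascular wall tumours alone.

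Of the 12 probes with the smallest p that were lower in perivascular wall tumours, all had an unadjusted p under 0.05 and none passed (adjusted p = 0.998 for each in edgeR). ITGAX, the integrin CD11c of myeloid and dendritic cells, had 68.9, 53.8, 123 and 153 normalized counts in perivascular wall tumours A, C, D and E, against 364, 491 and 126 in nerve sheath tumours B, F and G. Tumours B and F stood above the other 5, and tumour G lay in the perivascular wall range. The difference was -1.71 log2 (SE 0.59, unadjusted p = 0.0203).

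Most macrophage markers overlapped between the types. All perivascular wall tumours lay above all nerve sheath tumours for 1 of the 32 tested probes and below them for 0. Over all 676 tested probes these shares were 1.33% and 2.81%. Of the 32 tested macrophage and monocyte probes 0 passed, 1 had an unadjusted p under 0.05, and the median was -0.36 log2. Without nerve sheath tumour B that median was 0.39 log2. The list mean of log2 counts was 7.56 to 8.91 in perivascular wall tumours and 7.49 to 9.60 in nerve sheath tumours, lowest in nerve sheath tumour G. CD68, a lysosomal protein of macrophages, had 507, 286, 648 and 844 normalized counts in perivascular wall tumours, against 1975, 792 and 493 in nerve sheath tumours. Tumour B was highest, and tumour G was below 3 of the 4 perivascular wall tumours. In bulk tissue, fewer cells of a type cannot be told apart from less RNA per cell.

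KIT, the stem cell factor receptor of mast cells and melanocytes, split the nerve sheath tumours. It had 180, 189, 175 and 208 normalized counts in perivascular wall tumours A, C, D and E, against 113, 2202 and 2866 in nerve sheath tumours B, F and G. Nerve sheath tumour B was the lowest of all 7, and tumours F and G were the highest. The difference was -3.20 log2 (SE 0.86, interval -5.20 to -1.19, unadjusted p = 0.0065). Without tumour B it was -3.75 log2 and the only probe called (adjusted p = 0.00196 in edgeR). In the 7 treated nerve sheath tumours KIT was at 163 to 396 normalized counts, with a median of 210, well below tumours F and G.

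The other mast cell probes did not share the KIT pattern. CPA3, a mast cell protease, was at 10.3 to 106 normalized counts in perivascular wall tumours, against 17.7, 26.8 and 27.0 in nerve sheath tumours B, F and G. MS4A2, a chain of the IgE receptor, was at 6.89 to 90.6 in perivascular wall tumours and at 22.1, 62.2 and 25.1 in nerve sheath tumours. Both were highest in perivascular wall tumour D. CMA1, a chymase, reached 536 in perivascular wall tumour E, against 18.6 to 65.4 in nerve sheath tumours. FCER1A, another chain of that receptor, was above background in 3 of 4 perivascular wall tumours and in 0 of 3 nerve sheath tumours. Testing required at least 3 tumours above background, so FCER1A was tested through the perivascular wall tumours alone. CTSG, a granule protease also found in neutrophils, had 25.1 to 42.7 in perivascular wall tumours and 42.8 to 65.4 in nerve sheath tumours, with no overlap and a difference of -0.78 log2 (unadjusted p = 0.0368). Of the 6 tested mast cell probes 0 passed, and 2, KIT and CTSG, had an unadjusted p under 0.05, both lower in perivascular wall tumours. The list median of 0.17 log2 was -0.73 without perivascular wall tumour D. It was -1.99 over probes above background in all 7 tumours, which left only KIT and CTSG, so it does not describe the list.

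RET, the receptor of glial-derived growth factors, was low throughout. It had 12.1, 43.0, 20.4 and 39.9 normalized counts in perivascular wall tumours A, C, D and E, against 44.2, 126 and 123 in nerve sheath tumours B, F and G, and was above background in 2 of 4 and 3 of 3 tumours. Tumours F and G were again the highest, and tumour B was close to the perivascular wall tumours. The difference was -1.76 log2 (interval -3.08 to -0.44). ZEB1, a transcription factor of mesenchymal cells, had 162, 106, 124 and 176 in perivascular wall tumours, against 442, 219 and 512 in nerve sheath tumours, with no overlap (-1.46 log2, SE 0.41, unadjusted p = 0.00784). ITGA4, an integrin of leukocytes, had 161, 135, 200 and 229 against 368, 448 and 239, also without overlap (-0.95 log2).

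The remaining probes on this side had low counts. TCF7, a transcription factor of T cells and the Wnt pathway, had 73.2, 94.1, 99.7 and 50.7 normalized counts in perivascular wall tumours, against 143, 178 and 364 in nerve sheath tumours (-1.52 log2, SE 0.48). IL7, a survival cytokine of lymphocytes, had 18.1, 13.4, 34.6 and 32.6 in perivascular wall tumours, against 50.9, 41.8 and 67.9 in nerve sheath tumours. Neither gene overlapped between the types. POU2AF1, a B cell coactivator, was at 20.7 to 46.8 in perivascular wall tumours, against 32.1, 91.2 and 146 in nerve sheath tumours. Its highest values were in nerve sheath tumours F and G. IL12RB2, a chain of the IL-12 receptor, was at 8.14 to 36.2 in perivascular wall tumours, against 32.1, 39.7 and 205 in nerve sheath tumours. Its -2.28 log2 was -0.93 log2 without tumour G. It was above background in 1 of 4 perivascular wall tumours and in 3 of 3 nerve sheath tumours. LOC100686511 had 23.3 to 62.1 in perivascular wall tumours and 91.1 to 170 in nerve sheath tumours.

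**Figure D3:**
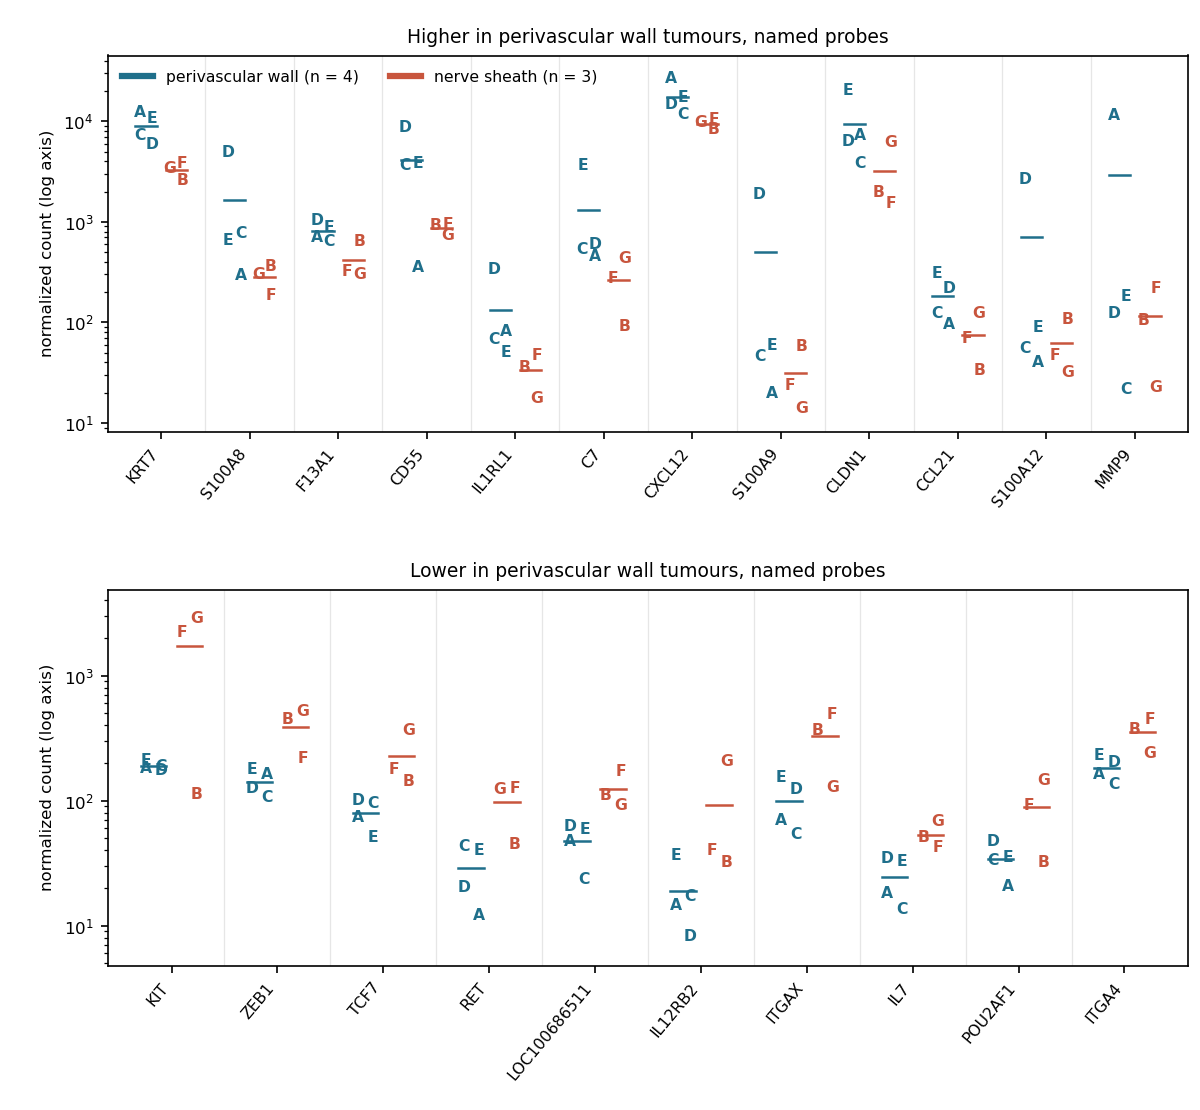
Normalized counts (log axis) of the probes named as higher (upper panel) and lower (lower panel) in perivascular wall tumours, with 1 letter per untreated tumour, perivascular wall in blue and nerve sheath in red, and a bar at each group's mean. KRT7 and ZEB1 separate the types in full, whereas the upper panel's S100A9 and MMP9 means are set by tumours D and A and the lower panel's KIT mean by tumours F and G.

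None of the gene lists of the tumour and its stroma had a member that passed the test (0 called in each list). The 21 fibroblast and matrix genes had a median of 0.04 log2. COL1A1, the main collagen chain, averaged 73786 ± 41583 normalized counts in perivascular wall tumours and 134373 ± 93646 in nerve sheath tumours, and COL3A1, a collagen of soft tissue, averaged 81125 ± 43946 in perivascular wall tumours and 81352 ± 52099 in nerve sheath tumours. SPP1, the matrix protein osteopontin, had 608, 264, 1350 and 3052 in perivascular wall tumours, against 13413, 3660 and 1653 in nerve sheath tumours (-2.24 log2, unadjusted p = 0.0495). The 12 endothelial and angiogenesis genes had a median of 0.29 log2, and PECAM1, an endothelial adhesion molecule, averaged 1133 ± 279 in perivascular wall tumours and 1157 ± 903 in nerve sheath tumours. Without nerve sheath tumour B that median was 1.04 log2.

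Growth and signalling lists were spread on both sides of the median of all probes, -0.10 log2. The 18 growth factor receptors and ligands had a median of 0.20 log2, and EGFR averaged 1771 ± 273 normalized counts in perivascular wall tumours and 1070 ± 607 in nerve sheath tumours. The TGF-beta family (6 tested) had a median of 0.11, DNA repair and chromatin genes (9) of 0.07, hypoxia and glycolysis genes (5) of -0.21 and apoptosis and survival genes (13) of -0.19. RAS, MAPK and PI3K signalling (25), Wnt and Notch signalling (3) and proliferation (15) had medians of -0.05, -0.15 and -0.07 log2, which turned to 0.061, 0.028 and 0.071 with TMM. The median of all probes turned with TMM as well, to 0.013 log2. The list mean of the 3 Wnt and Notch genes TCF7, APC and NOTCH1 was 8.03 to 8.33 in perivascular wall tumours. In nerve sheath tumours it was 8.59 to 8.81. This was the only one of 25 lists whose means did not overlap, beside 28 of 676 single probes (4.14%). Of its members only TCF7, also on the T cell list, was without overlap by itself. MKI67, a nuclear protein of cycling cells, had 461, 70.8, 205 and 47.1 in perivascular wall tumours, against 220, 310 and 276 in nerve sheath tumours. The perivascular wall tumours thus spanned a wider range than the nerve sheath tumours. Epithelial markers (6) had a median of 0.82 log2, which was -0.093 without perivascular wall tumour C. The skin, fat and skeletal muscle list (3) had 0.47, which was -0.72 without tumour C and 3.30 without nerve sheath tumour F.

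Keratinocyte markers varied more between tumours than between types. KRT14 had 638, 5103, 2606 and 14.5 normalized counts in perivascular wall tumours A, C, D and E, against 23.2, 3618 and 38.1 in nerve sheath tumours B, F and G. TP63, a transcription factor of basal epidermis, had 49.1, 264, 71.2 and 7.25 against 13.3, 192 and 6.51. Both were highest in tumours C and F, 1 of each type. The part of these skin genes in other results was not tested.

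Lymphocyte and antigen presentation lists had medians below that of all probes, with 0 members passing. The median was -0.70 log2 for T cell markers (18 tested), -0.45 for cytotoxic effector and NK genes (16), -0.52 for B and plasma cell markers (15) and -0.36 for dendritic cell markers (9). It was -0.46 for interferon response and antigen presentation genes (36), of which 32 had a lower and 4 a higher mean in perivascular wall tumours, but this median was 0.047 without nerve sheath tumour B and -1.04 without perivascular wall tumour D. Over all 676 probes 396 had a lower and 280 a higher mean. Without nerve sheath tumour F the medians were -0.081 log2 for T cell markers and -0.0012 for B and plasma cell markers, and without B the dendritic cell median was -0.033. CD3E, a chain of the T cell receptor complex, had 18.1, 18.8, 45.8 and 59.2 normalized counts in perivascular wall tumours A, C, D and E, against 27.6, 156 and 37.2 in nerve sheath tumours B, F and G. Tumour F stood above the other 6, and B and G fell within the perivascular wall range.

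Antigen presentation genes were highest in nerve sheath tumour B. B2M, the light chain of MHC class I, had 14374, 8496, 31321 and 23202 normalized counts in perivascular wall tumours, against 71987, 24789 and 13009 in nerve sheath tumours. DLA-DRA, a dog MHC class II chain, had 1434, 711, 6621 and 4686 against 10566, 8028 and 2238. Tumour G was within the perivascular wall range for both. IFI35, an interferon-induced gene, had 73.2, 65.4, 97.7 and 104 in perivascular wall tumours, against 236, 134 and 114 in nerve sheath tumours, with no overlap (-0.92 log2, interval -1.90 to 0.05). Checkpoint and regulatory genes (23) had a median of -0.20 log2, chemokines and their receptors (35) of -0.14 and complement genes (23) of 0.05. The neutrophil and acute inflammation list (20) had 0.80 log2, with its list mean highest in perivascular wall tumour D, and -0.41 log2 without that tumour.

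**Figure D4:**
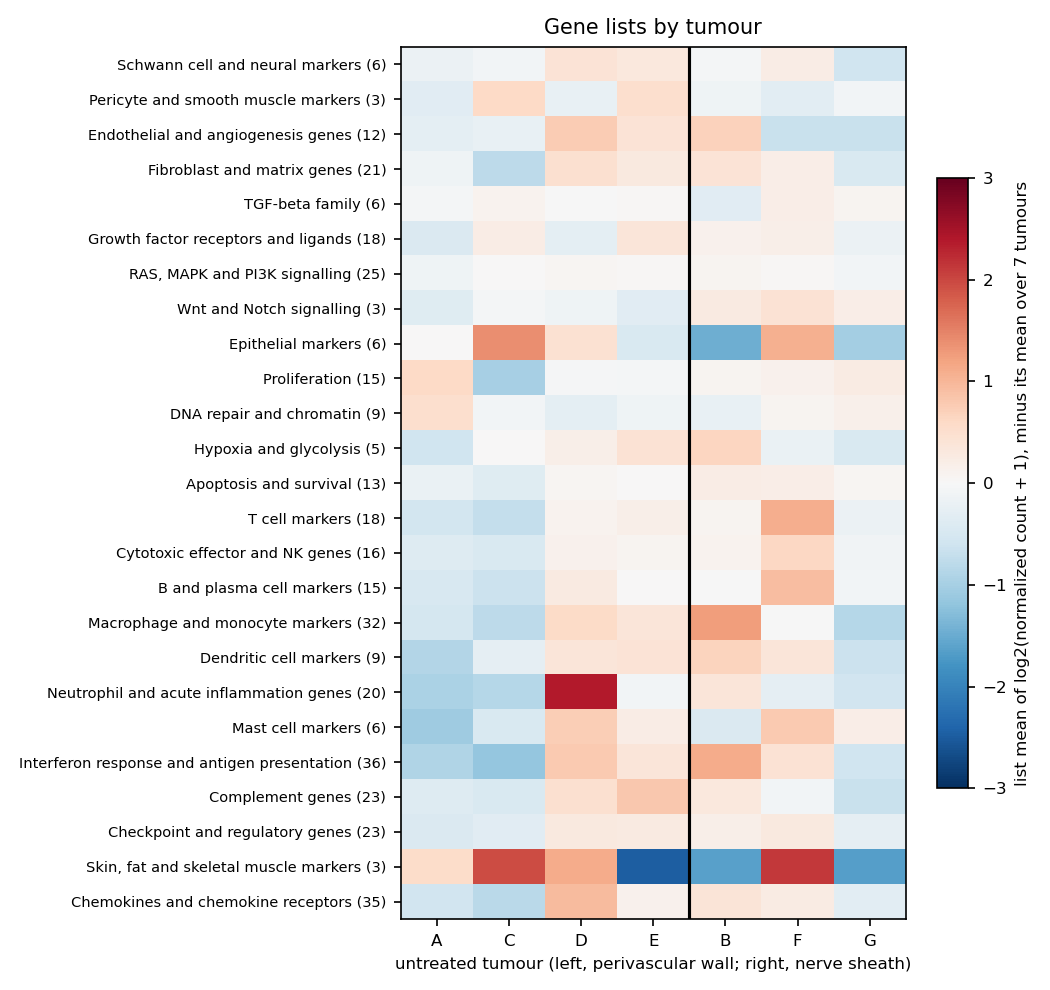
Mean of log2(normalized count + 1) over the tested members of each list (number in brackets), minus the list's mean over the 7 tumours, for perivascular wall tumours (left of the line) and nerve sheath tumours (right). Colour changes from column to column within a type, as for neutrophil genes in tumour D and skin markers in tumours C and F.

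Single tumours accounted for the widest ranges. For each tumour, the probes were counted that lay at least 4-fold above or below all the other 6. These numbered 12 above in perivascular wall tumour D, 3 in E, 1 in A and 0 in C, and 3 above in nerve sheath tumour B and 1 each in F and G. Tumours C and G had 2 each that lay at least 4-fold below all others. The 12 of tumour D were led by neutrophil and acute inflammation genes. CXCL8, the neutrophil chemokine IL-8, had 8322 normalized counts in tumour D and 59.4 to 318 in the other 6, and IL6 had 1031 against 19.8 to 42. CSF3R, the receptor of the granulocyte growth factor, had 348 in tumour D and 16.1 to 28.7 elsewhere. HBEGF, an EGF receptor ligand, had 577 in tumour D and 57.7 to 126 in the others.

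The other tumours stood apart for different genes. In perivascular wall tumour E these were C7, CMA1 and KRT8, a simple keratin with 258 normalized counts in E and 26.5 to 49.4 in the others. In nerve sheath tumour B they were MMP1, MARCO and KLRG1. MMP1, an interstitial collagenase, had 18311 in tumour B and 70.6 to 1150 in the others, and MARCO, a macrophage scavenger receptor, had 2195 in B and 8.96 to 261 elsewhere. Nerve sheath tumour F had 3182 counts of IGHG, the heavy chain of IgG, against 27.5 to 321 in the others. In nerve sheath tumour G the probe was IL12RB2, given above. The 2 low probes of perivascular wall tumour C were CLEC7A, a fungal pattern receptor of myeloid cells, and CCL19, a chemokine of lymphoid stroma. Those of tumour G were CCL24 and LOC102153988.

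**Figure D5:**
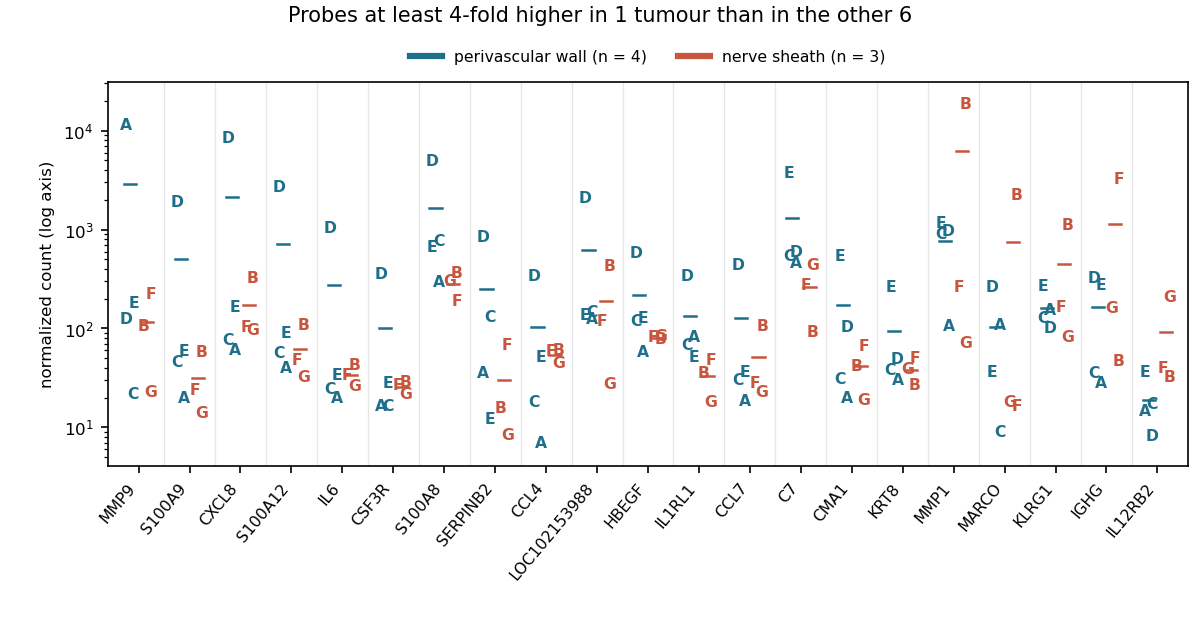
Normalized counts (log axis) of the probes that lay at least 4-fold above all other tumours in 1 untreated tumour, with 1 letter per tumour, perivascular wall in blue and nerve sheath in red, and a bar at each group's mean. Letter D stands alone at the top for S100A9, CXCL8 and IL6, and letter B for MMP1 and MARCO.

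The day 8 tumours after 1 dose hold 1 further perivascular wall tumour and 2 nerve sheath tumours, which had been treated, so that no test was made. Of the 12 genes named as lower in untreated perivascular wall tumours, 9 were also lower in the day 8 perivascular wall tumour than in both nerve sheath tumours, 0 were higher than in both and 3 lay between. Of the 12 named as higher, 3 were higher than in both, 5 lower than in both and 4 between. The same was not counted over all 676 tested probes, so these counts have no share to be set against. Housekeeping levels differed as well, at 709 in the perivascular wall tumour against 627 and 526 in the nerve sheath tumours. KIT had 93.3 normalized counts in the day 8 perivascular wall tumour, against 192 and 184 in the nerve sheath tumours, where neither nerve sheath tumour had the level of untreated F or G. KRT7 had 5237 in the perivascular wall tumour, against 11262 and 4961 in the nerve sheath tumours, so that the separation seen in untreated tumours was not present. C7 had 197 in the perivascular wall tumour, against 4081 and 1830 in the nerve sheath tumours, the opposite order to the untreated tumours.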

How the data were processed

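Counts per probe were deposited by the authors, 1 file per sample, as raw whole numbers exported from nSolver per the series design text and the file headers. Each file holds 780 endogenous, 20 housekeeping, 8 negative and 6 positive control probes. A deposited table of normalized signal by the authors, whose settings the labels do not state, served only as an alternative. Probe names are those of the files. Of 800 probes, 773 matched a symbol and 4 a gene identifier in the RefSeq table of UU_Cfam_GSD_1.0.

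Counts were tested with edgeR 4.0.16 (R 4.3.3, quasi-likelihood, robust) on the 7 untreated tumours. Library size followed the geometric mean of the housekeeping probes, and p-values were Benjamini-Hochberg adjusted over 676 probes. A probe was tested when above the mean plus 2 SD of the negative controls in at least 3 tumours, which left out 104. The SE was worked back from the test. The test was also run on simulated counts with known changes, and the outcome of that run is not reported here.

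Alternatives were TMM and median-of-ratios scaling, DESeq2 1.42.0, limma 3.58.1 on the deposited and on log2(normalized count + 1) values, other filters, background subtraction, models of all 17 samples, and leaving out each tumour.

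Named were, in each direction, the 12 probes of smallest p whose average in the higher type reached 50 normalized counts (the rule preferred called probes, of which there were 0), and all tested lineage markers. Other list members are examples, some chosen after their values were seen, as was the 4-fold rule for single tumours. Members, the 27 lists and tests were chosen with earlier results of these data known. A few probes that met these rules are not reported here.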

Additional observations from a re-analysis of the deposited data

Results flagged for a closer look

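C7, a component of the membrane attack complex, was at 3653 normalized counts in perivascular wall tumour E, far from the other 3 perivascular wall tumours at 450 to 589. The gap to the nearest of them was 0.872 of the group's range on the log2 scale, above Dixon's 95% critical value for 4 values, and on that scale no other of the 33 named genes passed it in this group. On the linear scale, a reading added after seeing the data, 6 genes passed it: C7, S100A8, S100A9, S100A12 and IL1RL1, the last 4 highest in perivascular wall tumour D, and MMP9, highest in tumour A. Chance gives such a value in about 1 in 20 groups, so 1 passing gene of 33 on the log2 scale is not more than chance would give. That rate was not worked out for the linear scale. CFI, a complement regulator, was also highest in tumour E, at 4758, against 169 to 1427 in the other 6 tumours.

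For 3 genes every untreated perivascular wall tumour was above every untreated nerve sheath tumour, while the day 8 perivascular wall tumour was below both day 8 nerve sheath tumours. F13A1 had 852 normalized counts in the day 8 perivascular wall tumour, against 863 and 1122 in the nerve sheath tumours. The nearest values were almost level on day 8, and also in untreated tumours, at 636 in perivascular wall tumour C and 635 in nerve sheath tumour B. IL1RL1 had 19.997, which is near background, against 20.7 and 103. C7 had 197, against 1830 and 4081. The day 8 side has 1 perivascular wall tumour, so these differences between untreated and treated tumours were not tested.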

How the results depend on the processing

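The count of called probes was 0 in edgeR and was also 0 with TMM and median-of-ratios scaling, both limma fits, each filter, background subtraction and both models of 17 samples. It was 4 with DESeq2, and 0 to 1 with each tumour left out, the 1 being KIT without tumour B. At an unadjusted p under 0.05 the count was 27 in edgeR, 54 in DESeq2 and 12 without tumour F. Of 33 named genes 27 kept their direction under the alternatives run. The log2 difference of SOX10 turned with TMM (0.033), median-of-ratios scaling (0.050) and DESeq2 (0.052), and ran -0.24 to 0.18 with each tumour left out. That of GFAP turned with TMM (0.11), median-of-ratios (0.12), DESeq2 (0.12) and background subtraction (0.021), and ran -0.23 to 0.15. That of S100B was 0.0054 with TMM and ran -1.12 to 0.57. Left-out ranges that crossed 0 were -0.023 to 4.16 for S100A12, -0.099 to 5.53 for MMP9 and -0.024 to 0.25 for MCAM. Of the list medians, 17 values moved. TGF-beta moved to 0.31 with median-of-ratios and 0.31 with DESeq2. RAS, MAPK and PI3K signalling moved to 0.061 with TMM, 0.071 with median-of-ratios and 0.070 with DESeq2, and Wnt and Notch to 0.028, 0.041 and 0.041. The median of all probes also moved in these settings, from -0.10 to 0.013 with TMM and to 0.037 with median-of-ratios and with DESeq2. The mast cell median was -1.99 over probes above background in all 7 tumours, which for this list were only KIT and CTSG. With each tumour left out the median ran 0.10 to 1.04 for endothelial genes, -0.045 to 0.058 for RAS, MAPK and PI3K, -0.39 to -0.078 for Wnt and Notch, -0.35 to -0.16 for apoptosis, -0.99 to -0.081 for T cells, -0.67 to -0.0012 for B and plasma cells, -0.73 to 0.52 for mast cells and -0.72 to 3.30 for skin, fat and muscle. It crossed 0 as well for interferon and antigen presentation (-1.04 to 0.047), macrophages (-0.87 to 0.39), neutrophils (-0.41 to 1.10), epithelial markers (-0.093 to 1.56), hypoxia (-0.28 to 0.12), checkpoint genes (-0.33 to 0.064), proliferation (-0.49 to 0.048), complement (-0.13 to 0.25), DNA repair (-0.10 to 0.11), chemokines (-0.59 to 0.045), growth factors (-0.099 to 0.40), TGF-beta (-0.075 to 0.23) and matrix genes (-0.082 to 0.19). The causes were not tested. No paired analysis was possible because no replicate letter occurs in both tumour types.

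With 4 against 3 tumours, differences within about 1.11 log2 did not reach an unadjusted p under 0.05 in edgeR for the typical probe. After adjustment larger differences did not pass either, such as -3.20 log2 for KIT. SOX10, IL3RA and FCER1A lay near background, where counts of the negative controls limit the values. So did IL12RB2 in perivascular wall tumours, whereas it was above background in 3 of 3 nerve sheath tumours and at 205 in tumour G.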
